A study of Homo sapiens with 12 samples.

Results

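The 50 genes described here encode the machinery that copies DNA and the factors that start and accompany S phase. They were fixed as a list of symbols, from the origin recognition complex to the chromatin assembly factors. That choice was made with earlier results of these data known. All 50 were found among the 48114 genes of the deposited tables, each as a row of its own, and all 50 were tested, as part of the 22544 genes whose normalized counts averaged 10 or more over the PANC-1 libraries.

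RNA was measured by sequencing of polyA RNA in 12 libraries of 2 lines of pancreatic ductal adenocarcinoma (PDAC), and the study used PANC-1 as a basal-like and HPAF-II as a classical line. PANC-1 cells received a control siRNA (siCtrl), an siRNA against QKI (siQKI, 40 nM) or an siRNA against RBFOX2 (siRBFOX2, 40 nM), and HPAF-II cells received siCtrl. QKI and RBFOX2 are RNA-binding proteins that regulate splicing. Each group held 3 libraries, collected after 48 h of silencing and described by the submitters as biological replicates. All groups are single established lines grown in culture, so the replicates measure the spread between cultures of a line and not between tumors.

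Before each S phase, the origin recognition complex (ORC), CDC6 and CDT1 load the ring-shaped MCM2-7 helicase onto origins. CDC45 and the GINS complex then join the ring to form the active helicase, and polymerase alpha-primase, polymerases delta and epsilon, the PCNA clamp and its RFC loader synthesize the new strands. Many of these genes are known targets of E2F transcription factors, which are released as cyclin-dependent kinases inactivate the RB family, and their RNA is a common readout of how many cells of a culture are cycling.

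Promoter windows show what these genes share apart from their function. RefSeq promoter sequence (GRCh38.p14, 250 bases before to 50 after the gene start) was matched for 43 of the 50 genes, and was not matched for MCM4, MCM5, GINS4, POLD3, RPA2, RPA3 and CCNE2. The letters TTTCCCGC, TTTGGCGC, TTTCGCGC and TTTGCCGC, core forms of the E2F binding sequence, were searched on both strands, where 2 forms can overlap. At least 1 of them stood in 22 of the 43 windows (51.2%), against 3.33% of all 27305 promoters of that length. CCAAT, the letters bound by NF-Y, stood in 55.8% of the replication windows and in 35.7% of all windows. Windows were also matched for 54 other pathway genes and 15 mitotic genes, from lists described below. E2F letters stood in 20.4% and 13.3% of these, and CCAAT in 50% and 86.7%. CCAAT was thus not particular to the replication genes.

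The 160 bases before the start are printed for 6 genes chosen after their values were seen, with E2F letters on either strand in capitals and all other bases in lower case. GINS2 and RFC3 are shown as E2F-letter promoters of genes with large decreases in siQKI cells, PCNA as a gene lower in both knockdowns, MCM6 as a gene lower in siRBFOX2 cells alone with overlapping E2F letters at both marked places, and E2F1 and POLE as genes that passed the test in neither knockdown.
GINS2 (chr16:85688955-85689114, - strand): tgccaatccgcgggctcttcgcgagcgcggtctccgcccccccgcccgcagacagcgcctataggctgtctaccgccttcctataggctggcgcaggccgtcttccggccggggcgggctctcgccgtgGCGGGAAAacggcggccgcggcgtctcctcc
RFC3 (chr13:33817989-33818148, + strand): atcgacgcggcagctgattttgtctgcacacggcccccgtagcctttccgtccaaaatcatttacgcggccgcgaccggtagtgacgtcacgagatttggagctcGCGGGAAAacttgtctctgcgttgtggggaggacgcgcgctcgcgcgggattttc
PCNA (chr20:5126623-5126782, - strand): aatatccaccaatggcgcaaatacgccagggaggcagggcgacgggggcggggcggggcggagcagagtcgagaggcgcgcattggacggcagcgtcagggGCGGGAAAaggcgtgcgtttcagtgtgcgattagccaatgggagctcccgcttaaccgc
MCM6 (chr2:135876444-135876603, - strand): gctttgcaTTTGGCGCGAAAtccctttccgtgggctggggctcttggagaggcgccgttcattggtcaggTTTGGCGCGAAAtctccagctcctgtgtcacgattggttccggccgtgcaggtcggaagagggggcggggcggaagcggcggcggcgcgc
E2F1 (chr20:33686386-33686545, - strand): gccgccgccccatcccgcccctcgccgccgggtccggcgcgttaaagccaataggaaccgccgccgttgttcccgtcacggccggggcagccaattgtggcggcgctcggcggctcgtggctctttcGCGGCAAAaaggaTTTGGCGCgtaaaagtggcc
POLE (chr12:132687343-132687502, - strand): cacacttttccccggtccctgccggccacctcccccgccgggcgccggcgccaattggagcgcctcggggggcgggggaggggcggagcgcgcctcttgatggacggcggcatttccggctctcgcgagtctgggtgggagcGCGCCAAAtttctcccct
The capitals stand in promoters of genes that fell and of genes that did not pass the test.

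**Figure D1:**
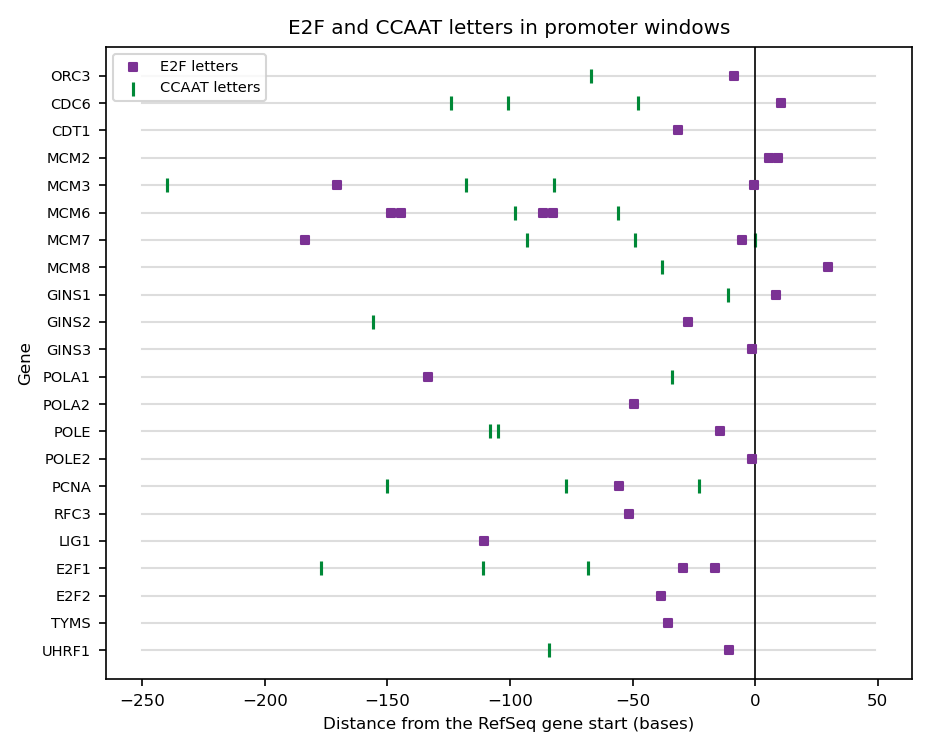
Positions of E2F letters (squares) and of CCAAT (vertical bars) in the promoter windows of the 22 replication genes that hold E2F letters, by distance from the RefSeq gene start in bases (horizontal axis, 250 before to 50 after). MCM6 holds 4 E2F matches, which overlap in pairs, and MCM2 has its matches just after the start.

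The replication genes were well expressed in PANC-1. Their mean normalized counts over the 9 libraries ran from 1553 (E2F2) to 107286 (MCM7) with a median of 13343, against a median of 906 for all tested genes. Per kilobase of exon, the siCtrl levels were highest for PCNA (60014 normalized counts per kb), thymidylate synthase TYMS (51853), the CDT1 inhibitor geminin GMNN (37311) and MCM7 (32447), and lowest for E2F2 (315.5) and GINS4 (465). Replicates lay close together, with a median coefficient of variation over the 50 genes of 2.95% in siCtrl, 2.86% in siQKI and 4.27% in siRBFOX2 libraries. The targeted genes were reduced, QKI from 25533 ± 869 (SD, n = 3) normalized counts in siCtrl to 5034 ± 412 in siQKI libraries, and RBFOX2 from 15429 ± 76.8 to 2095 ± 352 in siRBFOX2 libraries. In siQKI libraries RBFOX2 itself stood at 81.9% of siCtrl (limma adjusted p = 0.0207).

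All 6 epithelial markers were detected in both lines, but EPCAM, KRT7 and CDH1, with means of 4749, 1430 and 987 in PANC-1 siCtrl libraries, reached 120072, 246043 and 55655 in HPAF-II. Of 5 fibroblast, 5 immune and 4 endothelial markers, DCN, PTPRC, CD3E and MS4A1 were listed at 0 in all siCtrl and siQKI libraries of PANC-1, while CD68 was detected in every group. Summed epithelial markers were 2550 to 2643 of 1000000 normalized counts in siCtrl, 2558 to 2715 in siQKI and 2133 to 2290 in siRBFOX2 libraries, summed immune markers were 145 to 169, 117 to 119 and 127 to 134, and summed fibroblast markers were 11.5 to 13.1, 23.8 to 27.5 and 13.8 to 21.1, led by COL1A1. The epithelial sum was carried by KRT8, KRT18 and KRT19, while CDH1 rose from a mean of 987 normalized counts in siCtrl to 2610 in siQKI and 1431 in siRBFOX2 libraries (limma adjusted p = 1.54e-07 and 0.00177). Mean counts in siCtrl, siQKI and siRBFOX2 libraries were 4749, 4378 and 4278 for EPCAM and 295695, 257516 and 231988 for KRT18. For KRT7 they were 1430, 1214 and 1584, for KRT8 427827, 435021 and 364277, and for KRT19 158393, 162816 and 135191. The rise of CDH1 was thus not shared by the epithelial markers as a set. The part of all these markers in the results below was not tested.

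Silencing of QKI lowered many replication genes by a modest amount. In siQKI cells 29 of the 50 genes were lower than in siCtrl, 1 was higher and 20 did not pass the test (limma, adjusted p under 0.05). Of all tested genes 18.1% were lower and 14.9% higher, and of the 9730 genes with a mean within the range of the 50 genes, 35.1% were lower and 20.3% higher. The median log2 fold change of the 50 genes was -0.18, against 0.03 over all tested genes, and single genes ranged from -0.62 to 0.18. The siQKI libraries lay entirely below the siCtrl libraries for 33 genes (23% of all tested genes) and entirely above for 5 (21.6%). A fall of at least 1.2-fold was reached by 15 genes (11.3% of all tested genes) and one of at least 1.5-fold by 1 gene, CDC45 (3.16%).

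Silencing of RBFOX2 lowered slightly more of them. In siRBFOX2 cells 33 genes were lower, 1 was higher and 16 did not pass the test, with 14.5% of all tested genes lower and 12% higher, and 28.9% lower and 17% higher among genes in the same range of means. The median log2 fold change was -0.24 (all tested genes 0.01), from -0.49 to 0.31. The libraries lay entirely below siCtrl for 39 genes (19.7% of all tested genes) and entirely above for 1 (18.2%), and 24 genes fell by at least 1.2-fold (7.6%) and 0 by 1.5-fold (1.62%). Both knockdowns were compared with the same siCtrl libraries, and 25 genes were lower in both (9.7% of all tested genes). In bulk RNA, fewer cells in S phase and less RNA of these genes per cell cannot be told apart. The paper reports no effect of QKI knockdown on PANC-1 proliferation in a separate growth assay. Its relation to these RNA levels was not tested.

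The fall was visible in every library. The median over the 50 genes, as a percentage of the siCtrl mean, was 98.2% to 100.7% in siCtrl, 88.2% to 89.4% in siQKI and 82.2% to 86.9% in siRBFOX2 libraries, without overlap between groups. The 50 genes together made up 0.359% to 0.361% of the normalized counts of siCtrl, 0.330% to 0.341% of siQKI and 0.307% to 0.313% of siRBFOX2 libraries. Rescaling changed the counts of siQKI cells: 21 genes were lower and 6 higher after upper-quartile rescaling, where 3057 of all tested genes were lower and 4225 higher, and the same numbers of replication genes, 21 and 6, were found after rescaling to equal totals. In siRBFOX2 cells 32 genes were lower and 1 higher under the first and 28 and 1 under the second, with 2715 and 2290 of all tested genes lower.

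**Figure D2:**
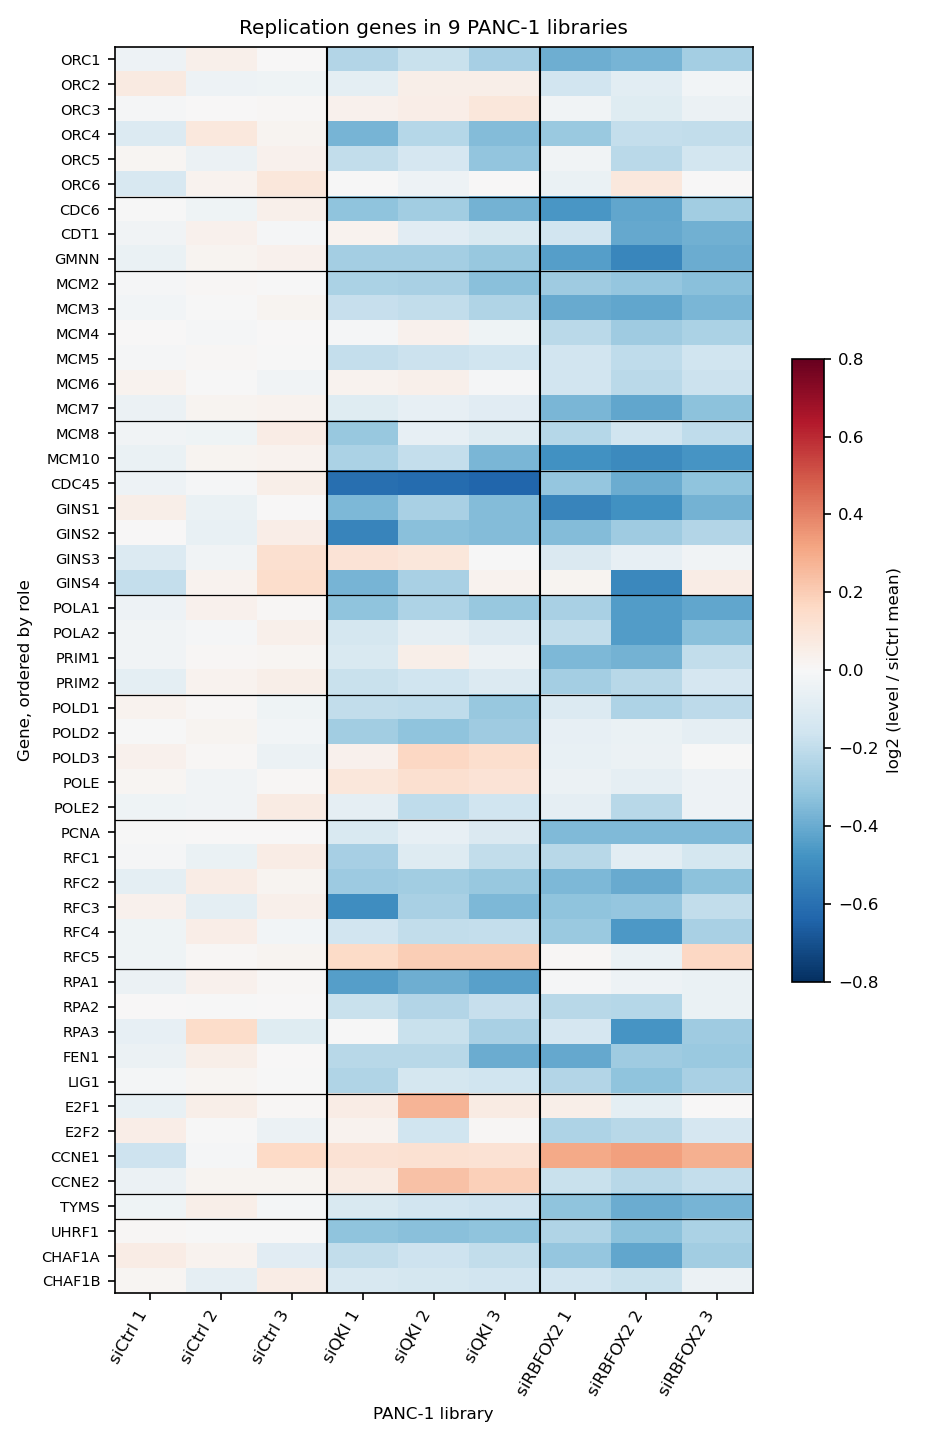
Level of each of the 50 genes (vertical axis, ordered by role, lines between roles) in each of the 9 PANC-1 libraries (horizontal axis), as log2 of the level over the siCtrl mean, blue for lower and red for higher. Blue prevails in the siQKI and siRBFOX2 columns, where the medians per library were 88.2% to 89.4% and 82.2% to 86.9% of siCtrl, while CCNE1 is red in the siRBFOX2 columns.

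Among origin recognition genes, ORC1 and ORC4 were lower in both knockdowns. ORC1, the ATPase subunit whose amount varies over the cell cycle, stood at 7188, 7612 and 7427 normalized counts in siCtrl, at 6301, 6542 and 6169 in siQKI and at 5646, 5733 and 6140 in siRBFOX2 libraries. All 3 groups were apart, at 85.5% and 78.8% of siCtrl (limma adjusted p = 0.00454 and 0.000249), and the direct log2 difference of 0.12 between the knockdowns did not pass the test (adjusted p = 0.146). ORC4 was at 80.4% of siCtrl in siQKI and 85.5% in siRBFOX2 cells, and ORC5 passed the test in siQKI cells only, at 86.1%, with 91.6% in siRBFOX2 cells and no difference past the threshold between the knockdowns (adjusted p = 0.386). The siQKI call of ORC5 and the siRBFOX2 call of ORC4 were kept in 13 and 14 of 18 alternative settings. ORC2, ORC3 and ORC6 passed it in neither, with log2 fold changes of 0.01, 0.06 and -0.01 in siQKI and of -0.09, -0.06 and 0.01 in siRBFOX2 cells. After either rescaling, ORC3 was called higher in siQKI cells.

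The licensing factors CDC6 and CDT1 and the CDT1 inhibitor GMNN were all lower in siRBFOX2 cells. GMNN, which blocks relicensing by binding CDT1, stood at 48847, 51369 and 51899 normalized counts in siCtrl, at 42043, 41990 and 41154 in siQKI and at 37288, 35268 and 38546 in siRBFOX2 libraries. The groups did not overlap, and the log2 fold changes were -0.28 ± 0.04 (SE) and -0.45 ± 0.04 (limma adjusted p = 8.15e-05 and 1.54e-06). CDC6, the ATPase that helps load the helicase, was at 79.9% of siCtrl in siQKI and 76.7% in siRBFOX2 cells (adjusted p = 0.00021 and 7.49e-05). CDT1, its partner in loading, was at 96% in siQKI, which did not pass the test, and at 80.6% in siRBFOX2 cells (adjusted p = 0.00247). Its libraries read 8649, 9009 and 8766 in siCtrl, 8984, 8284 and 8102 in siQKI and 7924, 6629 and 6743 in siRBFOX2, so the siQKI libraries overlapped siCtrl and the siRBFOX2 libraries lay below both other groups.

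Of the 6 genes of the MCM2-7 ring, 3 passed the test in siQKI cells. MCM2, MCM3 and MCM5 were lower, at 82.3%, 86.6% and 88.6% of siCtrl (limma adjusted p = 2.12e-05, 0.000264 and 0.0011), whereas MCM4, MCM6 and MCM7, the subunits that form a helicase core of their own in vitro, did not pass the test, at 99.8%, 101% and 94.3%. In siRBFOX2 cells all 6 were lower, from 76.1% (MCM3) to 88.8% (MCM5) of siCtrl.

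MCM4 read 63856, 63392 and 63950 normalized counts in siCtrl, 63379, 65176 and 62195 in siQKI and 54773, 52384 and 53449 in siRBFOX2 libraries. The siQKI libraries spanned the siCtrl values and the siRBFOX2 libraries lay below both groups. MCM7 read 114682, 120188 and 120615 in siCtrl, 111027, 113021 and 111171 in siQKI and 91870, 88730 and 94269 in siRBFOX2 libraries. MCM2, by contrast, read 73830, 74617 and 74180 in siCtrl, 62261, 62124 and 58924 in siQKI and 60890, 59872 and 58758 in siRBFOX2 libraries, so both knockdowns overlapped each other below siCtrl. Tested directly, siQKI was above siRBFOX2 for MCM3, MCM4, MCM6 and MCM7, with log2 differences of 0.19, 0.25, 0.20 and 0.29 (adjusted p = 0.00104, 0.000112, 0.00116 and 4.2e-05), but MCM2 (0.03) and MCM5 (-0.003) did not pass. A difference between subunits within siQKI cells was not tested. Of the exon bases of MCM2, 30.7% are shared with an antisense gene, and strand is not stated for the counts.

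MCM10 and MCM8, relatives by name, were both lower in both knockdowns. MCM10, which helps activate the loaded helicase, had the largest fall of the 50 genes in siRBFOX2 cells. It read 9287, 9807 and 9843 normalized counts in siCtrl, 8100, 8456 and 7497 in siQKI and 6894, 6780 and 6958 in siRBFOX2 libraries, with 83.1% and 71.3% of siCtrl and no overlap of groups (log2 fold change -0.27 ± 0.05 and -0.49 ± 0.05, limma adjusted p = 0.00121 and 1e-05). MCM8, a helicase of recombination repair, was at 89.8% in siQKI (adjusted p = 0.0425), a call kept in 8 of 18 alternative settings, and at 87.2% in siRBFOX2 cells, a call kept in 14.

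CDC45 fell most of all in siQKI cells. CDC45, which turns the MCM ring into an active helicase (hg38 chr22:19479466-19520611), read 12378, 12673 and 13163 normalized counts in siCtrl, 8394, 8306 and 8211 in siQKI and 10268, 9694 and 10179 in siRBFOX2 libraries. All 3 groups were apart, with siQKI lowest at 65.2% and siRBFOX2 at 78.9% of siCtrl. The log2 fold changes were -0.62 ± 0.05 and -0.34 ± 0.05 (limma adjusted p = 1.13e-07 and 6.64e-05), and the direct difference was -0.27 ± 0.05 (adjusted p = 0.000507).

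Among the GINS genes, only GINS1 and GINS2 were lower past the test. GINS1 was at 80.1% of siCtrl in siQKI and at 72.6% in siRBFOX2 cells (limma adjusted p = 8.6e-05 and 4.59e-06). GINS2 read 19073, 18326 and 19769 in siCtrl, 13238, 15087 and 15005 in siQKI and 15010, 15675 and 16187 in siRBFOX2 libraries, with both knockdowns below siCtrl and overlapping each other (75.8% and 82% of siCtrl). GINS3 and GINS4 passed the test in neither knockdown, with 105% and 87.4% in siQKI and 95.3% and 91.9% in siRBFOX2 cells. GINS4 varied most between replicates, with siRBFOX2 libraries at 2577, 1776 and 2652. A difference between the GINS genes within a knockdown was not tested.

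Polymerase alpha-primase, which lays down the RNA-DNA primer, fell in full in siRBFOX2 cells. POLA1, POLA2, PRIM1 and PRIM2 were at 77.3%, 79.9%, 80.7% and 86.6% of siCtrl (limma adjusted p = 0.000287, 0.000408, 0.00109 and 0.00545). In siQKI cells POLA1 (81.8%) and PRIM2 (90.4%) were lower, and POLA2 (92.8%) and PRIM1 (97.4%) did not pass the test. The siQKI call of PRIM2 (adjusted p = 0.0332) was lost after either rescaling, without the mean-variance trend and without siCtrl replicate 2 or 3 or siQKI replicate 1 or 2 (log2 fold change -0.14 to -0.12 without a library). PRIM1, the catalytic primase, read 9628, 9892 and 9935 in siCtrl, 9017, 10148 and 9518 in siQKI and 7654, 7542 and 8566 in siRBFOX2 libraries. Only the siRBFOX2 libraries stood apart, and siQKI was above siRBFOX2 by 0.27 ± 0.06 on the log2 scale (adjusted p = 0.00365). POLA2 shares 53.7% and PRIM1 26% of its exon bases with another annotated gene on the same strand, so their counts are uncertain.

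The polymerases of the leading and lagging strand had the smallest median change of the 12 role groups in siRBFOX2 cells, with a log2 fold change of -0.07. Of their 5 genes only POLD1, the catalytic subunit of polymerase delta, was lower there, at 87.8% of siCtrl (limma adjusted p = 0.00961), and it was at 85% in siQKI cells. POLD2, its accessory subunit, read 44510, 45380 and 43965 in siCtrl, 36768, 35683 and 36681 in siQKI and 42553, 42950 and 42423 in siRBFOX2 libraries. The siQKI libraries lay far below the others, at 81.5% of siCtrl (adjusted p = 1.05e-05), while siRBFOX2 was at 95.6%, and the knockdowns differed by -0.23 ± 0.03 (adjusted p = 0.000206). POLD3, POLE and POLE2 passed the test in neither knockdown, and POLD3 and POLE, at 108% each in siQKI cells, were called higher there after either rescaling. The siRBFOX2 call of POLD1 was lost without the mean-variance trend and after rescaling to equal totals (limma adjusted p = 0.0557 and 0.0539). POLD1 shares 12.1% of its exon bases with another annotated gene on the same strand.

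PCNA and the RFC clamp loader were mostly lower. PCNA, the sliding clamp, read 87899, 88442 and 88500 normalized counts in siCtrl, 80969, 84175 and 81473 in siQKI and 69062, 68982 and 69114 in siRBFOX2 libraries. The 3 groups were apart, and siQKI, at 93.1% of siCtrl, was above siRBFOX2, at 78.2%, by 0.25 ± 0.03 on the log2 scale (limma adjusted p = 5.6e-05). The siQKI call of PCNA (adjusted p = 0.0252) was lost after either rescaling, without the mean-variance trend and without siCtrl replicate 2 or 3 or siQKI replicate 1 or 3 (log2 fold change -0.10 to -0.09 without a library).

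RFC2, RFC3 and RFC4 were lower in both knockdowns, RFC3 at 77.4% of siCtrl in siQKI (adjusted p = 0.000438) and 82.6% in siRBFOX2 cells. RFC1, the large subunit, was at 87.9% in siQKI (adjusted p = 0.0137) and 90.2% in siRBFOX2 cells, where it did not pass the test (adjusted p = 0.0526). In siQKI cells the calls of RFC1 and RFC4 were lost after either rescaling and without the mean-variance trend, that of RFC1 also without siCtrl replicate 3 or siQKI replicate 1 (log2 fold change -0.16 to -0.15) and that of RFC4 without siCtrl replicate 2 or siQKI replicate 2 or 3 (-0.18 to -0.16). RFC5 was the only one of the 50 genes higher in siQKI cells. It read 10676, 11047 and 11134 in siCtrl, 12152, 12557 and 12577 in siQKI and 11024, 10553 and 12293 in siRBFOX2 libraries. The siQKI libraries lay above siCtrl, at 113% (log2 fold change 0.18 ± 0.06, limma adjusted p = 0.0179), and the call was lost without siCtrl replicate 1 (log2 fold change 0.16), without siQKI replicate 2 (0.18) or 3 (0.17) and without the mean-variance trend. PCNA, RFC3 and RFC5 have annotated pseudogenes, with which reads can be shared.

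RPA1, the large subunit of the protein that coats single-stranded DNA, had the largest difference between the knockdowns of the 50 genes. It read 43466, 46027 and 45228 normalized counts in siCtrl, 33123, 34233 and 33302 in siQKI and 44552, 43687 and 43247 in siRBFOX2 libraries. The siRBFOX2 libraries overlapped siCtrl and the siQKI libraries lay well below, at 74.7% of siCtrl against 97.6%. The log2 fold change was -0.42 ± 0.04 in siQKI (limma adjusted p = 5.6e-07) and -0.03 ± 0.04 in siRBFOX2 cells (adjusted p = 0.558), with a direct difference of -0.39 ± 0.04 (adjusted p = 3.07e-06).

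RPA2 was lower in both knockdowns, at 87.1% and 89.1% of siCtrl. RPA3, the smallest subunit, was at 90.5% in siQKI, which did not pass the test, and at 81.8% in siRBFOX2 cells (limma adjusted p = 0.0173). The siRBFOX2 calls of RPA2 and RPA3 were kept in 14 and 15 of 18 alternative settings. The nuclease FEN1 and the ligase LIG1, which finish lagging-strand fragments, were at 82.5% and 88.2% in siQKI and at 79.6% and 82.9% in siRBFOX2 cells, all past the test.

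E2F1, E2F2 and the cyclins E were not called lower in siQKI cells. They did not pass the test there, with E2F1 at 110%, E2F2 at 97.5%, CCNE1 at 108% and CCNE2 at 112% of siCtrl (limma adjusted p = 0.103, 0.793, 0.236 and 0.0618), and E2F1 and CCNE2 were called higher after either rescaling. E2F1 and E2F2, activators of S-phase transcription, also passed it in neither direction in siRBFOX2 cells (99.4% and 87.1%). CCNE1, the cyclin that activates CDK2 at the start of S phase (hg38 chr19:29811991-29824312), read 3262, 3641 and 4085 in siCtrl, 3968, 3988 and 3960 in siQKI and 4520, 4591 and 4454 in siRBFOX2 libraries. The siRBFOX2 libraries lay above both other groups, at 123% of siCtrl (log2 fold change 0.31 ± 0.07, limma adjusted p = 0.00576). The direct log2 difference of siQKI minus siRBFOX2, -0.19, did not pass the test (adjusted p = 0.0912).

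CCNE2, the other cyclin E, read 3674, 3867 and 3866 in siCtrl, 3982, 4474 and 4347 in siQKI and 3360, 3261 and 3333 in siRBFOX2 libraries. The 3 groups were apart, with siQKI above and siRBFOX2 below siCtrl. Only the fall in siRBFOX2 cells passed the test (87.3% of siCtrl, limma adjusted p = 0.0339), and it was lost after either rescaling and (log2 fold change -0.21 to -0.18) when any of siCtrl replicates 2 and 3 or of the siRBFOX2 replicates was left out. The direct difference of 0.36 ± 0.06 (adjusted p = 0.000749) was the largest rise of siQKI over siRBFOX2 among the 50 genes. Of the exon bases of CCNE2, 47.5% overlap INTS8 on the opposite strand.

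TYMS, which makes thymidylate, was lower in both knockdowns, at 90.4% of siCtrl in siQKI and 77.8% in siRBFOX2 cells (limma adjusted p = 0.00571 and 3.81e-06), and 58.2% of its exon bases overlap ENOSF1 on the opposite strand. UHRF1, which guides DNA methylation to newly made DNA, read 28942, 28699 and 28707 in siCtrl, 23043, 22801 and 23042 in siQKI and 24368, 22894 and 24139 in siRBFOX2 libraries, both knockdowns lying below siCtrl (79.8% and 82.7%, adjusted p = 1.01e-05 and 8.57e-05). Of the chromatin assembly factor subunits, which place histones behind the fork, CHAF1A was lower in both (87.8% and 79.4%) and CHAF1B passed the test in neither (90.7% and 91.7%). The siQKI call of CHAF1A (adjusted p = 0.0287) was kept in 10 of 18 alternative settings and was lost after either rescaling, without the mean-variance trend and without siCtrl replicate 1 or 2 or any siQKI replicate (log2 fold change -0.20 to -0.16 without a library). That of TYMS was lost after either rescaling (adjusted p = 0.0621 and 0.0829).

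**Figure D3:**
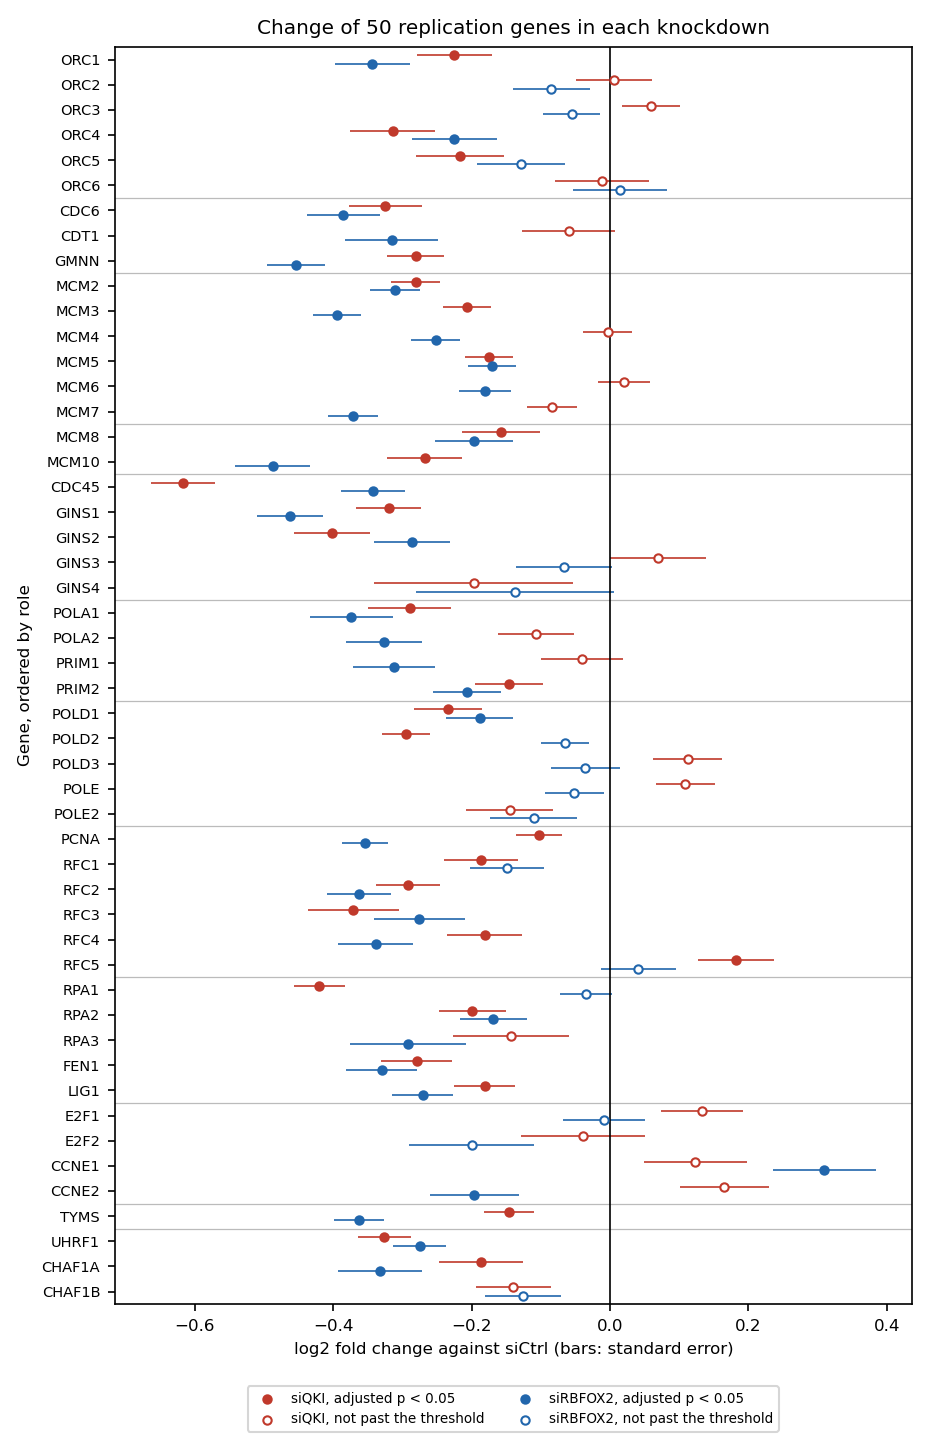
Log2 fold change against siCtrl (horizontal axis, bars for the standard error) of the 50 genes (vertical axis, ordered by role) in siQKI (red) and siRBFOX2 (blue) cells, filled where adjusted p was under 0.05. CDC45 lies furthest left in siQKI cells at -0.62, MCM10 in siRBFOX2 cells at -0.49, and CCNE1 (0.31) and RFC5 (0.18) are the filled points right of 0.

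**Figure D4:**
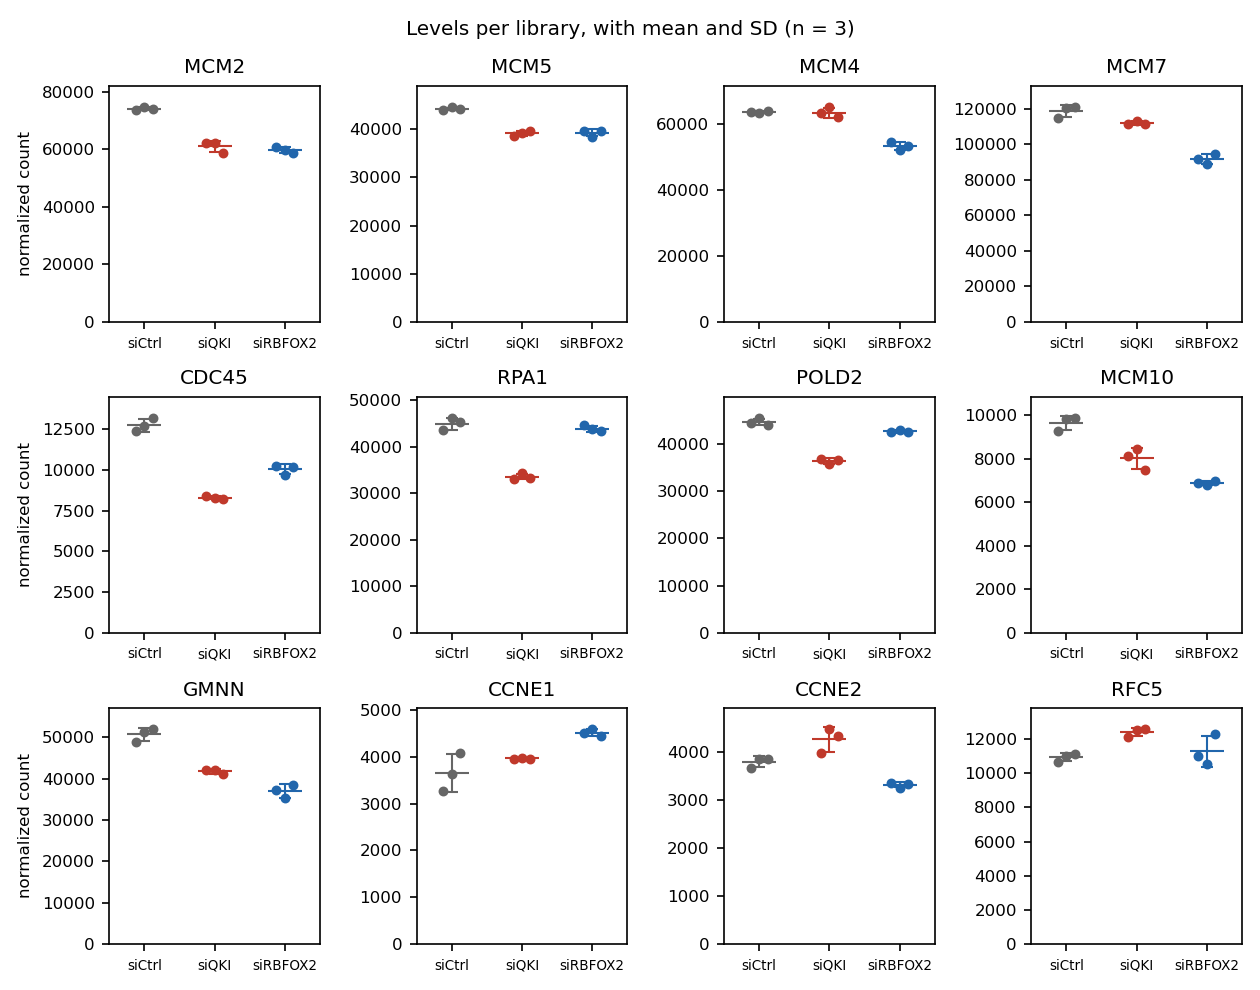
Normalized counts (vertical axes from 0) of 12 genes in the 3 siCtrl, 3 siQKI and 3 siRBFOX2 libraries of PANC-1, with points for libraries and bars for mean and SD. MCM4 is level in siQKI and lower in siRBFOX2 cells, RPA1 and POLD2 are low in siQKI alone, CDC45 is lowest in siQKI, and CCNE1 and CCNE2 move apart in siRBFOX2 cells.

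The direct comparison of the knockdowns placed siQKI above siRBFOX2 for 15 genes and below for 3, with 32 not past the test (limma, adjusted p under 0.05). Of all tested genes 9.93% were higher and 11.6% lower, and among genes in the same range of means 17.7% and 21%. The log2 difference uses no control library, but its spread was estimated over all 9 libraries. A fit of only the 2 groups placed 13 genes higher and 4 lower. In the main fit the 3 lower genes were RPA1, CDC45 and POLD2. The 15 higher genes were CDT1, GMNN, MCM3, MCM4, MCM6, MCM7, MCM10, GINS1, POLA2, PRIM1, POLD3, POLE, PCNA, CCNE2 and TYMS, and the 50 genes had a median log2 difference of 0.09. The calls of POLD3 and GINS1 were kept in 6 and 7 of 18 alternative settings, and that of CDT1 was lost without siQKI replicate 1 (log2 difference 0.21) and without siRBFOX2 replicate 2 (0.21) or 3 (0.22).

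Windows with E2F letters were found among genes that fell and among genes that did not pass the test. E2F letters stood in 12 of the 27 windows of genes lower in siQKI cells and in 10 of 15 of genes that did not pass the test there. In siRBFOX2 cells the counts were 16 of 28 and 6 of 14. The 2 genes with a rise, RFC5 and CCNE1, had no E2F letters in the window, which says only that these letters are not there.

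Around the 50 genes, 70 others of the pathway were read from 6 lists, and 68 were tested, since CDKN2A and CDKN2B were listed at 0 in all PANC-1 libraries. In siQKI cells 35 were lower, 7 higher and 26 did not pass the test (median log2 fold change -0.14), and in siRBFOX2 cells 44 were lower, 9 higher and 15 did not pass (median -0.22). By list, in siQKI and siRBFOX2 cells, origin firing and fork protection had 5 and 10 of 13 genes lower, the remaining polymerase subunits and alternative clamp loaders 6 and 6 of 11, nucleotide supply 5 and 6 of 10, histone and chromatin supply 4 and 6 of 8, the E2F family and partners 5 and 7 of 9, and the G1 regulators 10 and 9 of 17. These counts stand beside 18.1% and 14.5% of all tested genes lower in siQKI and siRBFOX2 cells, and beside 35.1% and 28.9% among genes with means in the range of the 50 replication genes, so the 5 of 13 origin firing genes in siQKI cells lie near the second share. Of the 18 mitotic genes, read against the same shares, 9 were lower in siQKI and 16 in siRBFOX2 cells, the latter 10 without the mean-variance trend.

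Among the genes around the list, regulators of G1 included large changes. RBL1, the RB family protein p107, read 6910, 6914 and 7485 normalized counts in siCtrl, 2980, 3208 and 3037 in siQKI and 6311, 6368 and 6344 in siRBFOX2 libraries, which is 43.3% and 89.3% of siCtrl (limma adjusted p = 1.01e-09 and 0.0475). The siQKI libraries were below all others, and the knockdowns differed by -1.04 ± 0.06 on the log2 scale (adjusted p = 1.33e-08). CDK6, which phosphorylates RB together with D cyclins, was at 62.2% of siCtrl in siQKI and 44.2% in siRBFOX2 cells (adjusted p = 1.94e-06 and 1.9e-08). Its partner cyclin D1 (CCND1) was at 68.4% and 48.7% (adjusted p = 7.57e-08 and 1.89e-10), and both were higher in siQKI than in siRBFOX2 cells (log2 difference 0.49 each). Cyclin D2 (CCND2), low in PANC-1, rose from 130 to 157 normalized counts in siCtrl to 278 to 484 in siRBFOX2 libraries (log2 fold change 1.5 ± 0.28, adjusted p = 0.000915).

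Inhibitors of these kinases moved in both directions. CDKN2D was at 63.9% and 61.1% of siCtrl in siQKI and siRBFOX2 cells, CDKN2C was higher at 131% and 113%, and CDKN1A, the p21 inhibitor, was higher in siQKI cells alone, at 128% (limma adjusted p = 7.05e-05) against 97.7%, with a direct log2 difference of 0.39 ± 0.05 (adjusted p = 6.21e-05). RRM2, the ribonucleotide reductase subunit that peaks in S phase, was higher in both knockdowns, at 125% and 119% (adjusted p = 4.44e-06 and 7.42e-05). In siRBFOX2 cells the repressor-type E2F5 and the helicase MCM9 were also higher, at 132% and 128% of siCtrl (adjusted p = 0.00482 and 0.0171), and the MCM9 call was lost without siCtrl replicate 1 (log2 fold change 0.32) or siRBFOX2 replicate 1 (0.31). Among mitotic genes, the kinase AURKB was at 73.9% in siQKI and 75.3% in siRBFOX2 cells, CDC20 and UBE2C of the anaphase-promoting pathway were at 80.8% and 81% in siQKI cells, and the motor KIF11 and the kinase CDK1 were at 74.9% and 80.4% in siRBFOX2 cells, all past the test.

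Between the cell lines no test was run, since their tables were normalized apart, and levels are given as counts rescaled to 1000000 per library. Of 24673 genes compared, 27.2% were at least 2-fold higher in HPAF-II siCtrl than in PANC-1 siCtrl cells and 25.2% at least 2-fold lower, 52.4% in all. These shares depended on the pseudocount. With a pseudocount of 1, 2733 of the 24673 genes were at least 2-fold higher and 2692 at least 2-fold lower. Among 19594 genes with a mean of at least 50, the counts were 4980 and 4527. A share among genes in the same range of means is not given here. Of the 50 replication genes 2 were at least 2-fold higher and 1 at least 2-fold lower under each of these settings. Their median log2 ratio was 0.10, against 0.08 over all compared genes. The libraries of HPAF-II lay entirely above those of PANC-1 for 19 genes (32% of all compared genes), entirely below for 15 (31.7%) and overlapped for 16. The 50 genes together made up 0.374% to 0.381% of the HPAF-II and 0.359% to 0.361% of the PANC-1 normalized counts.

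TYMS differed most. Its rescaled counts were 249, 255 and 247 in PANC-1 and 67.2, 64.1 and 64.1 in HPAF-II libraries, a 3.84-fold lower level without overlap. GMNN, MCM3, PRIM2 and E2F1 followed, at 1.79-fold, 1.73-fold, 1.73-fold and 1.71-fold lower in HPAF-II. The HPAF-II values of E2F1 were 16.6, 16.3 and 32.0, so 1 library stood well above the others, and without HPAF-II replicate 3 a second gene beside TYMS was at least 2-fold lower.

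MCM4 was 2.24-fold higher in HPAF-II, with 188, 182 and 185 rescaled counts in PANC-1 and 453, 420 and 370 in HPAF-II libraries. RFC1 was 2.08-fold higher, with 45.1, 42.7 and 46.6 against 99.6, 106 and 73.7, and without HPAF-II replicate 2 only 1 of the 50 genes was at least 2-fold higher. CHAF1A, CDC6 and RFC5 were 1.77-fold, 1.64-fold and 1.64-fold higher. Within the MCM2-7 ring, MCM4 and MCM3 thus lay on opposite sides of PANC-1. Of the clamp and its loader, 5 of 6 genes were above PANC-1 in all HPAF-II libraries, against 32% of all compared genes. Both groups were picked for mention after their values were seen.

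**Figure D5:**
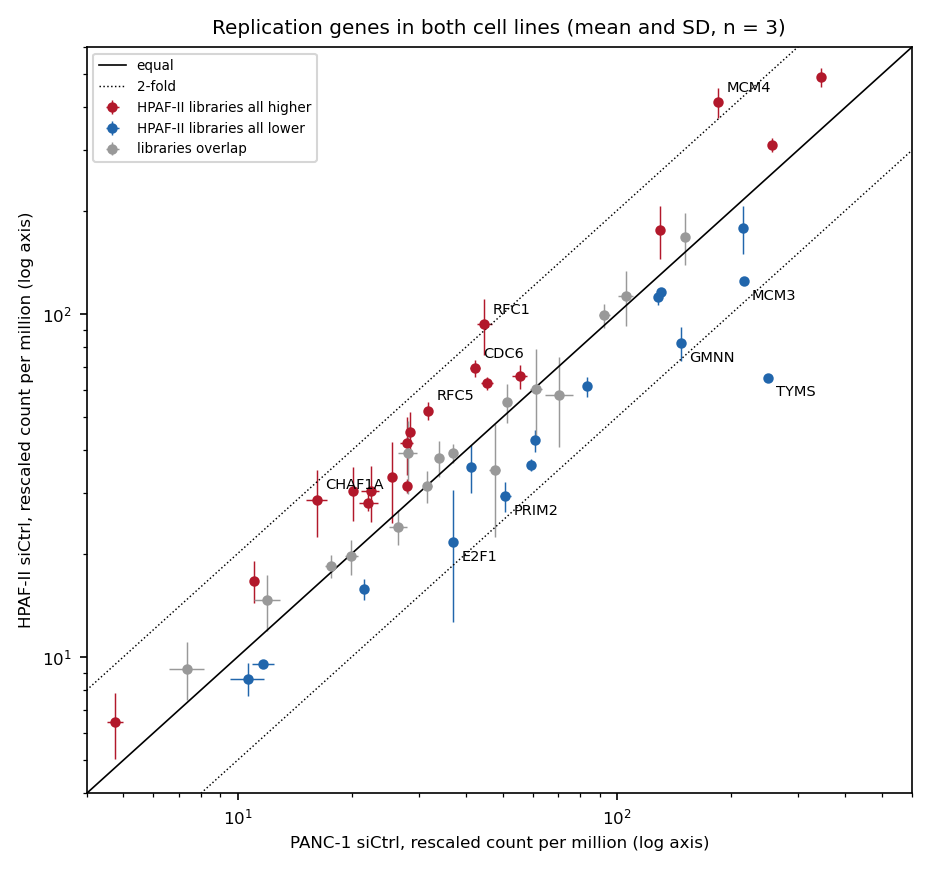
Mean level, rescaled to 1000000 per library, of the 50 genes in PANC-1 siCtrl (horizontal) and HPAF-II siCtrl cells (vertical), both on log axes, with SD bars (n = 3), red or blue where all HPAF-II libraries lay above or below all PANC-1 libraries and grey where they overlapped. Most genes lie between the dotted 2-fold lines, with TYMS below and MCM4 and RFC1 above them.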

How the data were processed

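RNA was measured in 9 PANC-1 and 3 HPAF-II libraries. Signal values were deposited as counts per gene over a DESeq2 size factor, which the authors computed for each line apart after alignment with STAR 2.7.5a to hg38 (submitters' processing notes). Each library's values were whole multiples of 1 step (within 0.01), summing to 292248837 to 376192091 steps per library of PANC-1 and 226697015 to 309720537 of HPAF-II. Between 82.1% and 84.8% of low values (up to 30 steps) were divisible by 3, which a count of single fragments would not give, so the depth in fragments is unknown and precision was taken from replicates.

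For the PANC-1 groups, a linear model without a block was fitted to log2(normalized count + 1) of the 9 libraries, over 22544 genes averaging 10 or more (limma 3.58.1 under R 4.3.3, with eBayes and its trend option). Benjamini-Hochberg adjusted p-values under 0.05 were called. Log2 fold changes are on this scale. The procedure was tested on simulated data. HPAF-II was set beside PANC-1 after rescaling each library to 1000000, with a pseudocount of 0.01. Exon lengths and overlaps came from GENCODE. Summaries used Python 3.11.15 with pandas 2.3.3 and numpy 2.4.6, and figures matplotlib 3.10.9.

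Full statistics were given to up to 5 replication genes per direction, those changed most past the threshold in each comparison, and to subunits side by side, and up to 3 pathway or mitotic genes were named per direction; any other gene was chosen after its values were seen. The genes and lists were chosen with earlier results of these data known. Alternatives were pseudocounts of 0.1 and 10, other filters, upper-quartile rescaling, a fit of only 2 groups, a replicate block, no trend, each library left out and, chosen after the data were seen, rescaling to equal totals.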

Additional observations from a re-analysis of the deposited data

Results flagged for a closer look

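MCM6, a subunit of the replicative helicase, was lower in siRBFOX2 cells alone. Its log2 fold change was 0.02 ± 0.04 in siQKI cells, which did not pass the test, and -0.18 ± 0.04 in siRBFOX2 cells, and the direct log2 difference of siQKI minus siRBFOX2 was 0.20 ± 0.04 (limma adjusted p = 0.00116).

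CCNE2, a cyclin E, changed on the log2 scale by 0.17 ± 0.06 under siQKI, which did not pass the test (limma adjusted p = 0.0618). Under siRBFOX2 it changed by -0.20 ± 0.06 (adjusted p = 0.0339), and the direct difference was 0.36 ± 0.06 (adjusted p = 0.000749). Both direct differences were past the threshold in all 18 alternative settings. The cause was not tested.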

How the results depend on the processing

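Of the 30 replication genes past the threshold in siQKI cells, 21 passed it in all 18 alternative settings, as did 28 of 34 in siRBFOX2 cells and 11 of 18 between the knockdowns, and none of these calls reversed. The median log2 fold change in siQKI cells was -0.12 after upper-quartile rescaling and -0.12 after rescaling to equal totals, and that in siRBFOX2 cells was -0.18 after rescaling to equal totals. With each library left out in turn, 25 to 30 genes passed in siQKI cells, 30 to 35 in siRBFOX2 cells and 14 to 18 between the knockdowns. Same-numbered libraries did not deviate together (r from -0.0325 to 0.0235), and not every library correlated best with its own number. With a replicate block, 30, 35 and 16 genes passed. Of the 18 mitotic genes, 10 rather than 16 were lower in siRBFOX2 cells without the mean-variance trend. Between the lines, deposited values without rescaling placed 5 genes at least 2-fold apart, all lower in HPAF-II, and turned the median log2 ratio to -0.17, while that over all compared genes moved alike, from 0.08 to -0.19. Leaving out a library there gave 2 to 4 genes. Depth in fragments is unknown. The cause of the moves with scaling was not tested.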

Other observations

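Of 19 regulators of G1, 4 were at least 2-fold higher and 3 at least 2-fold lower in HPAF-II than in PANC-1 siCtrl cells. These counts stand beside 27.2% and 25.2% of all compared genes, shares that were smaller with a pseudocount of 1. The median log2 ratio of the 19 was 0.05, and the genes given here were chosen after their values were seen. CDKN2A and CDKN2B, inhibitors of CDK4 and CDK6, were listed at 0 in all PANC-1 libraries and had means of 121 ± 27.8 and 100.2 ± 23.3 (SD, n = 3) rescaled counts in HPAF-II siCtrl libraries. CDK6 was at 52.3 ± 3.90 in PANC-1 and 140 ± 17.3 in HPAF-II libraries, 2.68-fold higher without overlap. CCND2 was at 0.408 ± 0.0384 in PANC-1 and listed at 0 in all HPAF-II libraries. RBL1, the gene with the largest fall in siQKI cells on the pathway lists, was at 20.6 ± 0.936 and 20.7 ± 3.54.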
